A study of Caenorhabditis elegans with 2 samples.

Results

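The cuticle collagen genes described here are the 156 protein-coding genes of Caenorhabditis elegans whose symbol is col- followed by a number, out of 19985 protein-coding genes in the Ensembl WBcel235 annotation (the ce11 assembly). Membership rests on the symbol alone, so no measured value chose a single gene, but the family was chosen with earlier results of these data known. All 156 carry a RefSeq product that names a collagen, and for 149 it names the cuticle. Chromatin immunoprecipitation sequencing (ChIP-seq) of the transcription factor HIF-1 was carried out on whole L4 larvae, the last stage before the adult. They were hermaphrodites of strain OR3350 grown for 55 h from synchronised, starved L1 larvae. The animals carried HIF-1 fused at its C-terminal end to GFP and FLAG, and an antibody to GFP was used on sonicated chromatin. The design had 1 group with 2 biological replicates. The labels name no oxygen condition, and there was no untreated or mutant group, so every comparison below is between genes or between peak lists of the same animals. Whole animals mix all tissues, so a site used in a few cells and a site used weakly in many cannot be told apart.

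Cuticle collagens are short secreted proteins built on glycine repeats (Gly-X-Y), made mainly by the hypodermis and exported in waves at each molt, where they are trimmed, cross-linked and laid down as the new exoskeleton. Their X-Y positions are rich in proline, part of which is hydroxylated by prolyl 4-hydroxylases in the endoplasmic reticulum. HIF-1 is the worm's hypoxia-inducible factor; it is degraded in normal oxygen after hydroxylation by a different prolyl hydroxylase, EGL-9, and binds the core of the hypoxia response element, which is ACGTG or GCGTG. The family was examined as a set of genes transcribed strongly in larvae, to see whether such genes carry HIF-1 peaks in their promoters, against all other protein-coding genes.

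The col- genes were spread over all chromosomes, with 41 on IV, 31 on V, 27 on X, 24 on II, 21 on I and 12 on III, and 45 of them lay next to another member. They were short, with a median length of 1220 bp and a median of 2 exons, against 2036 bp and 6 exons in the other 19829 protein-coding genes. The median distance to the next gene upstream was 855.5 bp, against 937 bp. A gene was called bound when a peak summit lay between 1000 bp upstream and 200 bp downstream of its start. The 4 deposited ce11 lists were used. They are a thresholded list of 631 peaks that the authors kept as reproducible, a relaxed list from the pooled reads with 6541 entries, and relaxed lists of 13935 entries from replicate 1 and 13823 from replicate 2. A relaxed list holds weak entries and background by design. The files give no read counts, so the depth is unknown. The signal of an entry is the authors' own value and is compared only within a list. Intervals on shares are 95% Wilson intervals over genes; they cover the counting of genes only, and neighbouring members that share a summit are not independent.

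The sequences that carry the results are those around the strongest entries at member genes. The first set gives 101 bp centred on the pooled-list summit, on the strand of the gene, for the 4 strongest separate promoter summits. Capitals mark bases of an annotated tRNA gene, and none of the 4 holds ACGTG or GCGTG on either strand. The intervals are chrX:13511899-13511999 for col-185, chrII:4871449-4871549 for col-20, chrII:8569411-8569511 for col-38 and chrV:13202344-13202444 for col-159, all on the minus strand of ce11, and none overlaps an annotated exon.
col-185: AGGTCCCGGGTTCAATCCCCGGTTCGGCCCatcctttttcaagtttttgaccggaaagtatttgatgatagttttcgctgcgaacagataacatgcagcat
col-20: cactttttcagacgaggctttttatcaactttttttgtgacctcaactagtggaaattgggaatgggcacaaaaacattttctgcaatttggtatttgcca
col-38: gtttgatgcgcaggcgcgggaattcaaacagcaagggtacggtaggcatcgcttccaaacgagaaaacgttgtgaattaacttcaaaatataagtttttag
col-159: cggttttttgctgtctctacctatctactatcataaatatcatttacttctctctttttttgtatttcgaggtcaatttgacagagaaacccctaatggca

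The second set gives the same 101 bp for 3 summits inside member genes, chosen after their values were seen. The col-85 stretch (chrII:12494669-12494769) lies in an intron, and capitals again mark tRNA bases; its 1 copy of the core, read on the opposite strand, falls within them. The col-138 (chrIV:17183194-17183294) and col-104 (chrIV:1354055-1354155) stretches lie in coding exons, and capitals mark the glycine codons of the reading frame. All 3 are on the minus strand.
col-85: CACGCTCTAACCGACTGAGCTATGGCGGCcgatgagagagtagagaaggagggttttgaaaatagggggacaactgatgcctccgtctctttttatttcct
col-138: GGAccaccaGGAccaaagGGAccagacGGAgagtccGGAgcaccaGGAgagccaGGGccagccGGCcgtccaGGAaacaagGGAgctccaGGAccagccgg
col-104: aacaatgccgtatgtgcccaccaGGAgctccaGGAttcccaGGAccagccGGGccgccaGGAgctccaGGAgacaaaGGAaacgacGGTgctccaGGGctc

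No col- gene had a thresholded HIF-1 summit in its promoter window. The count was 0 of 156 (interval 0.0 to 2.40%), where the share in other protein-coding genes was 1.99%, a value inside that interval. In the pooled relaxed list, 10 members were bound, or 6.41% (3.52 to 11.4%), against 12.2% of other genes (11.8 to 12.7%), and these intervals do not overlap. In replicate 1 the count was 30, or 19.2% (13.8 to 26.1%), against 20.5%. In replicate 2 it was 24, or 15.4% (10.6 to 21.9%), against 19.7%. The members' share was below that of other genes in all 4 lists, with the other genes' share inside the members' interval in all but the pooled list. In all, 46 members had a summit in at least 1 list and 110 had none. In at least 1 replicate list the share was 29.5% of members (22.9 to 37.1%) and 30.1% of other genes.

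Few members recurred between the replicates, and few other genes did. A summit in each replicate's window within 100 bp of the other was found for 7 members, or 4.49% (2.19 to 8.97%). The share was 6.99% in other genes, a value inside that interval. The 7 members made up 23.3% of the members bound in replicate 1 (11.8 to 40.9%) and 29.2% of those bound in replicate 2 (14.9 to 49.2%). For other genes the same shares were 34.1% and 35.5%, inside those wide intervals.

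**Figure D1:**
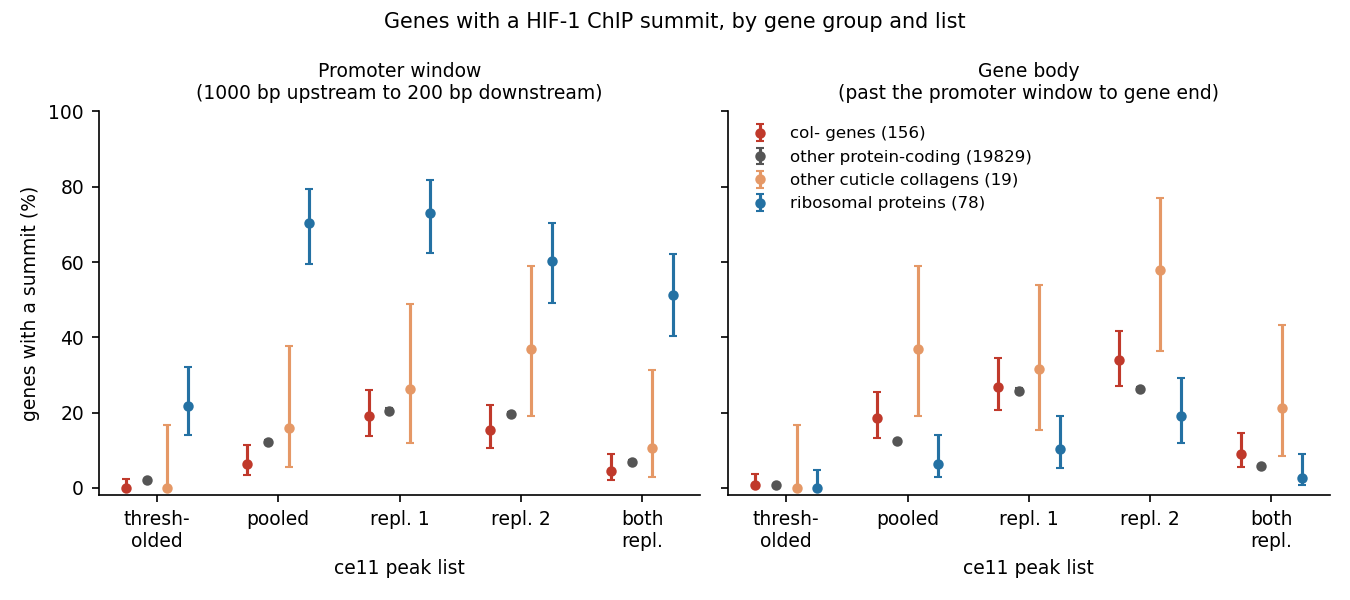
Share of genes (%, vertical axis) with a HIF-1 summit in the promoter window (left) or in the gene body (right), by peak list, for 4 gene groups; points are shares and bars 95% Wilson intervals over genes, and for other protein-coding genes the bar is about as tall as the point. The col- genes sit below other genes in every promoter list (0.0 against 1.99%, 6.41 against 12.2%, 19.2 against 20.5% and 15.4 against 19.7%) and above them in the gene bodies of the relaxed lists.

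Other families of strongly transcribed genes differed widely among themselves. Of 78 cytosolic ribosomal protein genes, which are transcribed strongly in nearly every cell, 17 had a thresholded promoter summit (21.8%, 14.1 to 32.2%) and 55 a pooled one (70.5%, 59.6 to 79.5%). Other protein-coding genes were at 1.99% and 12.2%. Of 31 major sperm protein genes, transcribed in the male germ line and during L4 sperm formation in hermaphrodites, 0 had a promoter summit in the thresholded or pooled list. The interval was 0.0 to 11.0% in each, which includes the thresholded share of other genes but not the pooled one. In replicate 1 the count was 0 of 31 and in replicate 2 it was 1 of 31. How much of the sequence of this family occurs once in the genome was not examined. Transcript levels were not measured in these animals, so the part of transcription in these shares was not tested.

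The strongest promoter entry of the family was at col-185. Its summit lay 852 bp upstream of the start, with a pooled signal of 49.1 (rank 762), 22.3 in replicate 1 and 24.6 in replicate 2. That entry fell 4.99 signal units short of the weakest thresholded peak, at 54.1. It lay 21 bp from an annotated tRNA gene (WBGene00014413), whose bases are the capitals in the first sequence above, and the replicate summits lay 13 and 9 bp from the same gene. Among the 9 separate pooled promoter summits of the family it was the only 1 within 100 bp of a tRNA, snoRNA, snRNA, rRNA or microRNA gene.

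The next, col-20, rested on a single replicate. Its pooled signal was 38.2 (rank 1257) at 708 bp upstream. In replicate 2 the summit had a signal of 35.2 and rank 366, the best rank of any member promoter in any list, and a further entry of 21.6 lay 903 bp upstream. The replicate 1 list had no entry in the window.

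For col-38, the pooled signal was 31.2 at 373 bp upstream, with 15.2 in replicate 1 and 16.0 in replicate 2. That summit also lay in the promoter window of rpl-5, a ribosomal protein gene, so it cannot be given to either gene alone. The overlapping gene models col-159 and col-160, whose starts are 12 bp apart, shared 1 summit with a pooled signal of 30.7, with 16.0 in replicate 1 and 14 in replicate 2. Both loci were therefore listed in both replicates at signals not far above the replicate list medians of 11.7 and 12.2.

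The remaining 5 pooled entries were weaker. For col-176 the summit was 125 bp inside the gene, in an exon, with a pooled signal of 29.8 and 18.1 in replicate 1, and there was none in replicate 2. For col-184 it was 198 bp inside, with 27.0 pooled, 10.1 in replicate 1 and 16.4 in replicate 2. These 2 were the pooled promoter summits with ACGTG or GCGTG within 50 bp, 2 of 9 or 22.2%, against 27.7% of 2124 summits in other promoters. In the replicate lists the members' share was lower still, at 4 of 33 (12.1%) against 23.3% in replicate 1. In replicate 2 it was 2 of 25 (8.0%) against 21.4%. For col-170 the pooled signal was 23.8, with 16.3 in replicate 1, and for col-133 it was 22.8, with 12.8 in replicate 1; neither had a replicate 2 entry within 100 bp. For col-63 the pooled signal was 22.0, with 10.8 and 14.1 in the replicates, at a summit within an exon of the neighbouring gene ceh-8.

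Each of the 9 separate pooled promoter summits had a matching entry within 100 bp in at least 1 replicate, and 5 had one in both. Among members in the replicate 1 list, col-106 followed col-185 and col-176, at 17.6, with no entry in the other lists. The median best signal at bound members was 10.7 in replicate 1, against 12.8 for other bound genes, and 13.0 against 13.1 in replicate 2. In the pooled list it was 30.3 against 29.4. The median signal of bound members was thus below that of other bound genes in both replicates and above it in the pooled list. Genes described as HIF-1 targets showed what a strong site looks like in these lists, with thresholded signals of 838 at rhy-1, 670 at nhr-57, 590 at sqrd-1 and 122 at egl-9, the hydroxylase gene itself.

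**Figure D2:**
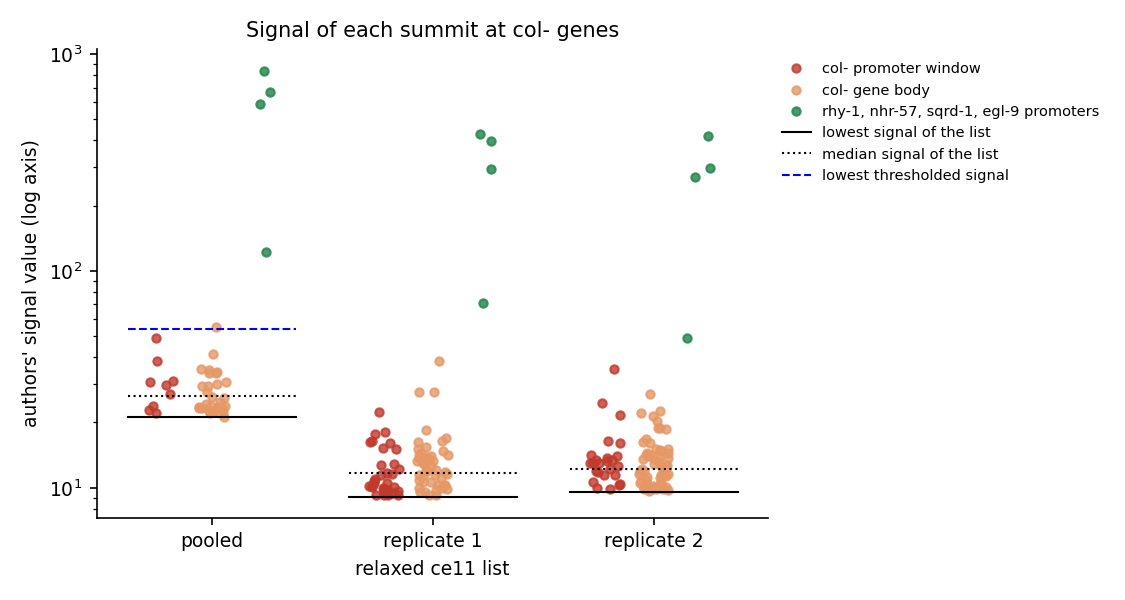
Authors' signal value (log axis) of each separate summit at col- promoters (red) and in col- gene bodies (orange), and at the promoters of 4 described HIF-1 targets (green), in the pooled, replicate 1 and replicate 2 relaxed lists; solid and dotted lines give each list's lowest and median signal, and the dashed line the lowest thresholded signal, 54.1. The highest col- promoter entry is col-185 at 49.1 in the pooled list, under the dashed line, and the only col- entry above it is the col-85 intron at 55.3.

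Few pooled summits lay close to the edges of the promoter window. Just inside the downstream edge lay col-184 at 198 bp and col-176 at 125 bp. Just outside it lay a second pooled summit of col-185 at 217 bp (30.2), one of col-122 at 263 bp (22.3) and one of col-171 at 272 bp (24.3). On the upstream side the members nearest inside were col-185, col-20 and col-63, and those nearest outside were a further summit of col-185 at 1056 bp (22.0), col-73 at 1205 bp (29.1) and col-84 at 1274 bp (22.0). A wider window, from 2000 bp upstream to 500 bp downstream, took in 22 members in the pooled list, or 14.1%, against 18.5% of other genes. In the replicates that window gave 32.7% against 32.6% and 32.1% against 31.7%, so there the members were no longer below.

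Of 7 members with known or often used roles, 5 had no promoter summit in any list, where 110 of all 156 members had none. The 5 were col-19, the adult-stage collagen gene, col-12, col-13, col-36 and col-120. A weak entry in each replicate was listed just inside col-10, at 10.2 in replicate 1 (59 bp) and 10.4 in replicate 2 (89 bp), without a pooled one. A replicate 1 entry of 9.79 lay 460 bp upstream of col-99, which is described as a gene for a transmembrane collagen.

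Thresholded peaks near col- genes were about as frequent as near others. A thresholded summit within 2500 bp of the start, on either side, was found for 6 members, or 3.85%, against 3.66% of other nuclear genes, and the median distance was 64975 bp against 74097 bp. The nearest was at col-85, 376 bp downstream of the start in its intron, and it was also the only thresholded summit inside a member gene. The others were at col-181 (1338 bp downstream, 60.6), col-94 (1790 bp upstream in an intron of dhc-4, 115), col-120 (1923 bp downstream, 106), col-78 (1990 bp downstream, 175) and col-153 (2057 bp downstream, 71.9). The summits near col-120 and col-153 lay in the promoter windows of Y11D7A.10 and F17C11.4. The col-181 summit lay 49 bp from a tRNA gene.

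The HIF-1 core was present in most member promoters, but in a smaller share than in those of other genes. ACGTG or GCGTG, searched on both strands, was present in 118 of 156 member windows of 1201 bp, or 75.6% (68.3 to 81.7%). In other genes the share was 82.1%, a value just above that interval. In the 301 bp around the start (250 bp before to 50 bp after) it was 35.3% (28.2 to 43.0%) against 41.1%, a value inside the interval. In the long windows ACGTG alone was in 64.1% (56.3 to 71.2%) against 66.3%, and GCGTG alone in 39.7% (32.4 to 47.6%) against 49.6%. GATAA, a motif read by GATA factors that act in the hypodermis and gut, was in 62.2% of the short windows (54.4 to 69.4%) against 57.7%, and AGGTCA, which nuclear hormone receptors read, in 13.5% (8.98 to 19.7%) against 8.25%. A match describes the letters only.

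Inside the genes, the members' share was above that of other genes in the relaxed lists. A pooled summit between 201 bp downstream of the start and the gene end was found in 29 members, or 18.6% (13.3 to 25.4%), against 12.4% of other genes, although the members' bodies were shorter (median 1019 bp against 1835 bp). Per length of gene body there were 157 pooled summits per Mb in col- genes and 56.0 in other genes. In replicate 1 the count was 42 members, or 26.9% (20.6 to 34.4%), against 25.8%, a value inside the interval, with 231 summits per Mb against 132. In replicate 2 it was 53, or 34.0% (27.0 to 41.7%), against 26.2%, with 295 against 134 per Mb. In the thresholded list it was 1 member, or 0.641%, against 0.736%.

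Both replicates listed a body summit within 100 bp of the other in 14 members, or 8.97% (5.42 to 14.5%), against 5.83%. Over a fixed stretch, 201 to 1200 bp downstream of the start, the pooled share was 16.0% against 5.68%. Leaving out summits that lay in the promoter window of any gene, the pooled share was 16.0% against 11.0%, and the replicate 1 share was 20.5% against 23.3%, so the order of the shares in replicate 1 depended on that choice. The stronger 50% of the pooled entries gave 7.05% against 5.46%. Of the 32 pooled body summits, 16 had a matching entry in both replicates within 100 bp and the other 16 in 1 replicate.

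**Figure D3:**
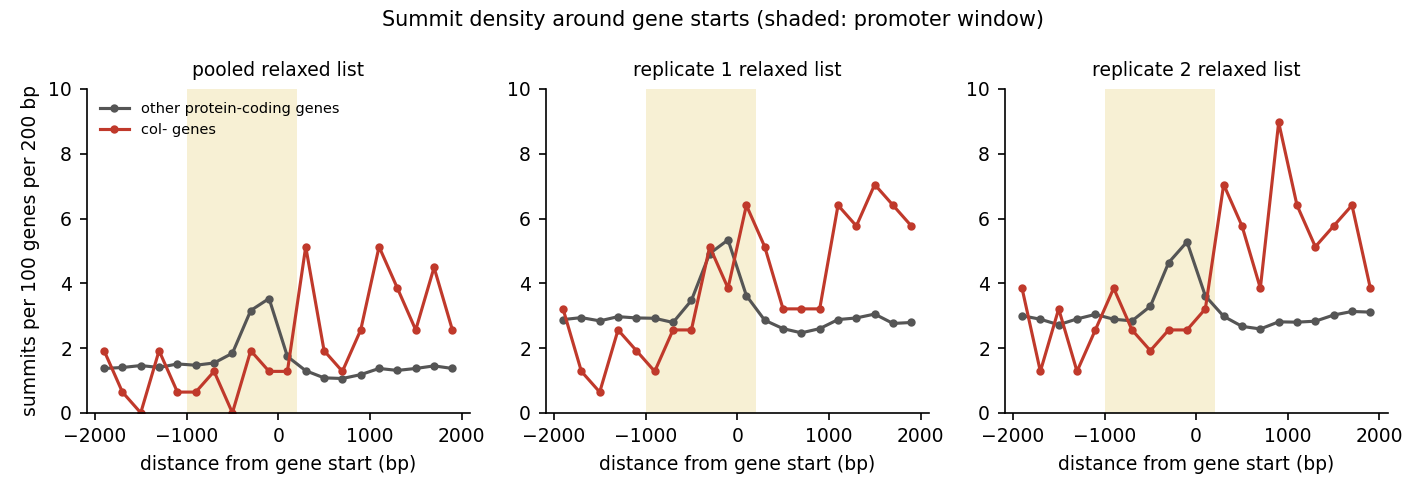
Summits per 100 genes in 200 bp bins (vertical axis) by distance of the summit from the gene start (bp, negative upstream), for col- genes (red) and other protein-coding genes (grey) in the 3 relaxed lists; shading marks the promoter window. In the pooled list the grey line peaks at 3.53 in the last 200 bp before the start, where the red line is at 1.28, and from 200 to 400 bp downstream the red line is at 5.13 and the grey at 1.30.

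The body summits of the col- genes were mostly weak, at median signals near those in other genes, and sat in coding sequence rich in G and C. In the pooled list 24 of 32, or 75%, lay in an exon of the gene, against 46.7% in other genes. The median GC content of the 101 bp around the summit was 57.4%, against 40.6%. The median signal was 24.1 against 25.2, in a list whose lowest signal is 21.2. In replicate 1 it was 12.4 against 11.3 and in replicate 2 it was 12.2 against 11.9, with the col- genes the higher. ACGTG or GCGTG lay within 50 bp of 25% of the pooled body summits, against 22.1%.

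The col-138 summit shows the kind of sequence involved. It lay 485 bp downstream of the start with a pooled signal of 33.8, 17 in replicate 1 and 15.1 in replicate 2. Of the 33 whole codons in the stretch printed above, 11 were glycine codons, 1 in every 3, and the GC content was 68.3%. At col-104 the pooled signal was 35.2, with 11.1 and 22.0 in the replicates, and 9 of 33 codons were for glycine. At col-14 (34.8) and col-78 (33.8) replicate 1 had entries of 18.5 and 38.3 and replicate 2 had none within 100 bp, and at col-48 (34.0) replicate 2 had 22.5 and replicate 1 had none. Both replicates listed a body summit in each of these 3 genes, not always at the pooled summit.

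Base composition moved with this result. The median GC content of the gene body was 51.3% in col- genes and 36.2% in other genes, and 134 members (85.9%) lay above 42.2%, the 90th percentile of other genes. Among genes with a body GC of 50% or more, there were 214 pooled summits per Mb in 91 col- genes and 146 in 212 other genes. In the same class the replicates gave 226 against 237 and 297 against 318 per Mb, with the col- genes the lower. The other genes include 19 cuticle collagen genes named for mutant phenotypes, and how many of those fall in this class was not counted. The share of genes with a body summit in that class was higher in the col- genes, at 18.7% against 6.13% in the pooled list. It was 19.8% against 9.91% in replicate 1 and 26.4% against 13.7% in replicate 2. The 91 col- bodies of that class totalled 84.0 kb and the 212 other bodies 110 kb. The col- bodies there were thus the longer on average, and these shares do not allow for length. In the class from 45 to 50% the col- genes had more summits per Mb in each list. The values were 162 against 87.2 in the pooled list, 324 against 170 in replicate 1 and 351 against 215 in replicate 2. In the classes under 45% the col- genes also had more summits per Mb in all 3 lists, with 75.9 against 52.2 in the pooled list under 40% and 108 against 77.3 from 40 to 45%. Summit density in other genes rose with GC content in all 3 lists, while their pooled share of genes with a summit was 12.6% in the lowest class and 6.13% in the highest. Their bodies totalled 52500 kb over 15737 genes in the lowest class and 110 kb over 212 genes in the highest. They were thus shorter on average in the highest class. The part of base composition in the body summits was not tested. Sequence repeats are another property of collagens. A median of 98.8% of the 32-base sequences of member bodies occurred once in the genome, against 100% in other genes. The lower quartile was 82.5% against 96.4%. With bodies under 90% left out, 110 members remained, and the pooled share was 23.6% against 13.6%.

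**Figure D4:**
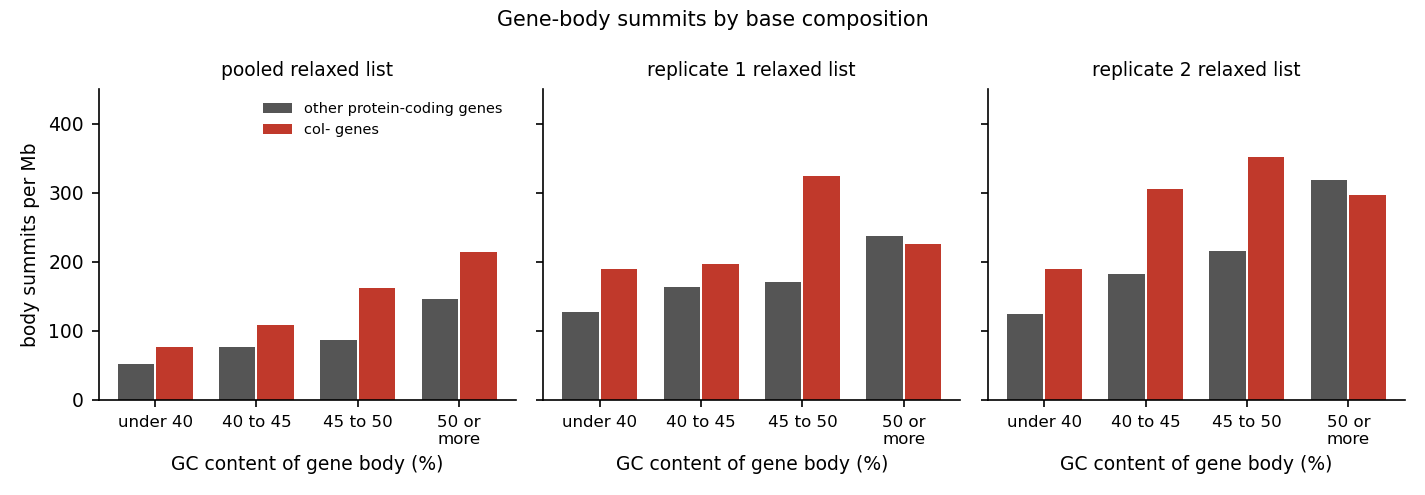
Gene-body summits per Mb of gene body (vertical axis, from 0) in 4 classes of gene-body GC content, for col- genes (red) and other protein-coding genes (grey), in the 3 relaxed lists; bars are totals over a class, with no error. Grey bars rise from left to right, from 52.2 to 146 per Mb in the pooled list, and in the class of 50% or more the replicate 1 and replicate 2 bars of the groups are 226 against 237 and 297 against 318.

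The strongest pooled entries in the family lay beside tRNA genes. The col-85 intron entry had a pooled signal of 55.3 (rank 602), 27.7 in replicate 1 and 27.0 in replicate 2, with its summit 22 bp from the tRNA gene WBGene00014524. The col-185 promoter entry followed at 49.1, and then an intron entry of col-99 at 41.3, with 27.5 in replicate 1 and 13.6 in replicate 2, 13 bp from the tRNA gene WBGene00023019. A weak entry in col-72 (23.9) also lay within such a gene. These 4 were 9.76% of the 41 separate pooled summits at members, and 4.14% of all pooled entries lay within 100 bp of a tRNA gene. Of 612 nuclear tRNA genes, 276 (45.1%) had a pooled summit within 100 bp and 53 (8.66%) a thresholded one.

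Depth into the lists set the promoter counts. Among the 1000 strongest pooled entries, 1 member was bound (0.641%) against 3.04% of other genes, and among the 3000 strongest 6 were (3.85%) against 7.20%. Cut to the length of the pooled list, replicate 1 gave 10 members (6.41% against 12%) and replicate 2 gave 14 (8.97% against 11.4%). The whole replicate 1 list gave 19.2% against 20.5%, so the shares came closest together in the weaker part of that list.

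**Figure D5:**
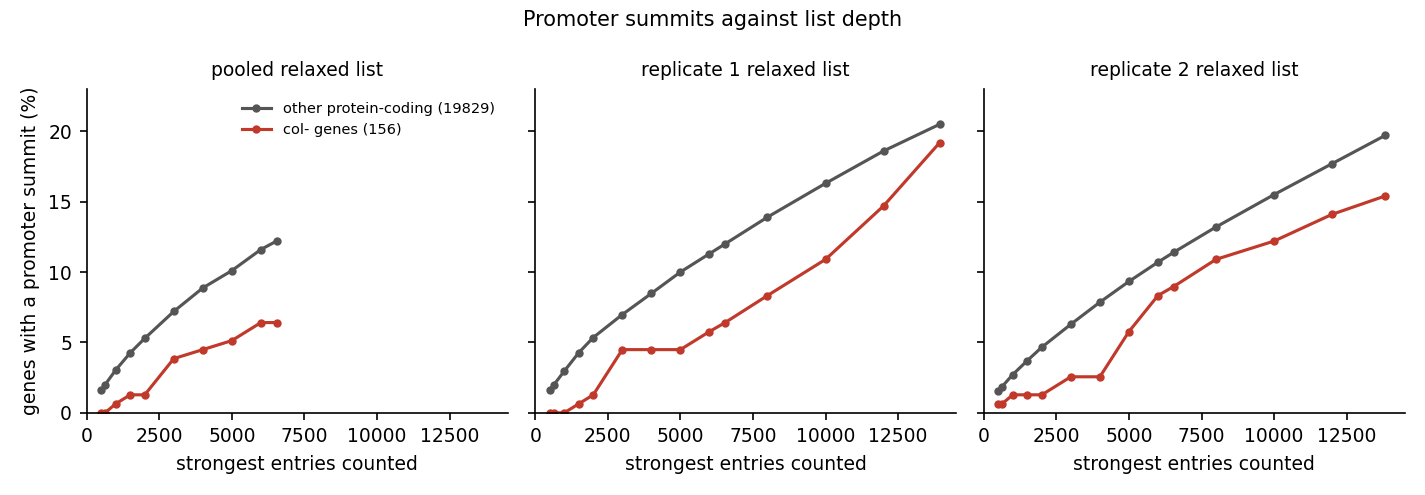
Share of genes with a promoter summit (%, vertical axis) against the number of strongest entries counted (horizontal axis), for col- genes (red) and other protein-coding genes (grey), in the 3 relaxed lists. The red line stays below the grey one at every depth drawn, ending at 6.41 against 12.2%, 19.2 against 20.5% and 15.4 against 19.7%.

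Promoter GC content and gene spacing were also set beside the counts. In windows in the upper GC quartile of other genes (above 37.4%), 0 of 50 members and 18.9% of other genes had a pooled summit, whereas in the quartile below it was 7 of 51 members, or 13.7%, against 13.1%. With a neighbour less than 1000 bp upstream, 3 of 85 members (3.53%) were bound against 15% of other genes, and with a longer gap 7 of 71 (9.86%) against 9.22%. In the lowest and the next GC quartile the members were at 4.0% against 5.96% and at 6.67% against 10.7%. The members' pooled share was thus lower in 3 of the 4 GC quartiles and with a close neighbour, and the part of GC content and spacing in it was not tested. By chromosome, the pooled share ran from 0 of 12 on III to 4 of 27 on X (14.8%), where other genes had 15.9% and 12%.

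The rest of the cuticle pathway was read in the same way. Among 19 other cuticle collagen genes with symbols from mutant phenotypes, 0 had a thresholded promoter summit (0.0 to 16.8%) and 3 had a pooled one, or 15.8% (5.52 to 37.6%). These were bli-2 (38.3), dpy-4 (31.4) and bli-1 (24.9); bli-1 and bli-2 mutants blister and dpy-4 mutants are short and fat. The bli-1 entry is the same peak as the body summit of the neighbouring col-80. Body summits were listed in 7 of the 19 in the pooled list (36.8%, 19.1 to 59.0%), with 299 per Mb. The col- genes were at 18.6% and 157 per Mb, and other protein-coding genes at 12.4% and 56.0. A body share above that of other genes was thus not particular to the col- genes. Cytosolic ribosomal protein genes had shorter bodies (median 552 bp) and a lower pooled body share, 6.41%. Per length they had 108 pooled summits per Mb, 195 in replicate 1 and 324 in replicate 2. Other protein-coding genes had 56.0, 132 and 134, so a raised summit density was not confined to collagens. Major sperm protein genes had 0.0 per Mb in the pooled list.

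Among 15 genes for collagen processing, 1 had a thresholded promoter summit, or 6.67% (1.19 to 29.8%), namely pdi-3, a protein disulfide isomerase, with a signal of 62.7, 31.1 in replicate 1 and 31.8 in replicate 2. In the pooled list 4 of 15 were bound (26.7%, 10.9 to 52.0%). Besides pdi-3 these were pdi-2 (40.7), whose product is a subunit of the collagen prolyl 4-hydroxylase, pdi-1 (40.5) and phy-2 (22.0), which encodes a catalytic subunit of that hydroxylase. With 15 genes, the pooled interval includes the 12.2% of other genes. In replicate 1 the share was 26.7% (10.9 to 52.0%) against 20.5%. Replicate 2 listed 8 of the 15 (53.3%, 30.1 to 75.2%), against 19.7% of other genes. Summits of both replicates within 100 bp were found for 3 (20.0%, 7.05 to 45.2%), against 6.99%. The last 2 intervals leave out the other genes' share, in the second case narrowly. The list also held bli-6, whose RefSeq product is itself a cuticle collagen.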

How the data were processed

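The authors deposited ce11 peak lists. Alignments and 1 control went into each relaxed list, per the deposited descriptions, and the thresholded list holds peaks kept as reproducible between replicates. No source used here gives the aligner, the peak caller or the threshold. The signal deposited for each entry has no stated formula and served only to rank and describe entries within a list. The 631 thresholded peaks were the 631 strongest pooled entries. Lists on the ce10 build were not used.

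Summits (peak start plus offset) were set against gene starts of Ensembl release 115 with Python 3.11.15, NumPy 2.4.6, pandas 2.3.3 and SciPy 1.17.1; figures used matplotlib 3.10.9. A summit counted for every window it lay in. The assignment was tested on simulated data. Sequences came from the RefSeq copy of WBcel235. No test was run, since 1 group allows none between conditions; shares carry 95% Wilson intervals. The members and lists were chosen with earlier results of these data known. Named genes were all members with a pooled or twice-replicated promoter summit, the 6 strongest per replicate list, those nearest the window edges or a thresholded summit, and members of established role; gene-body and tRNA results and their genes were added after values were seen. Of 20 symbols listed as other cuticle collagens, ram-4 matched no gene. Alternatives covered the window, assignment, gene start, list length, signal and replicates.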

Additional observations from a re-analysis of the deposited data

How the results depend on the processing

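Of 69 alternative values, 39 stayed inside the interval of the share they replaced, and the col- share was below that of other genes in 41. That count mixes promoter and gene-body shares, whose order differed. Among promoter alternatives, the col- share was below except with the nearest start, the wide window in the replicates and interval overlap in replicate 1. In that last case the rounded shares were equal. Among gene-body alternatives, the col- share was above except for replicate 1 summits outside promoter windows. Promoter shares fell in the narrow window (500 bp before to 100 bp after the start), to 3.21% in the pooled list, 12.8% in replicate 1 and 8.33% in replicate 2, and rose in the wide one (2000 bp before to 500 bp after), to 14.1%, 32.7% and 32.1%; other genes were at 18.5%, 32.6% and 31.7% there, so the order turned slightly in the replicates. Giving each summit to the nearest start within 2500 bp turned the order in every list: the thresholded share was 2.56% against 2.15% of other genes, the pooled 26.3% against 18.6%, replicate 1 43.6% against 35.0%, replicate 2 44.9% against 35.0%, and both replicates 14.7% against 10.1%; by construction this rule counts summits inside genes. Overlap of the peak interval with the window gave 23.1% in replicate 2. The stronger 50% of entries gave 7.05% in replicate 1 and 9.62% in replicate 2, the length of the pooled list 6.41% and 8.97%, and the length of the thresholded list 0.0% in the pooled list, in replicate 1 and in both replicates, and 0.641% in replicate 2, the gene being col-20.

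Gene-body shares with the stronger 50% were 7.05% (pooled), 16.7% (replicate 1), 17.3% (replicate 2) and 3.85% (both replicates), against 5.46%, 13.3%, 13.5% and 2.69% of other genes, and at the length of the pooled list 16.7%, 16.7% and 3.85% in the last 3, against 12.5%, 12.8% and 2.54%. In replicate 1 the fixed stretch and the summits outside promoter windows each gave 20.5%, against 12.5% and 23.3%, and in replicate 2 the bodies with at least 90% unique sequence gave 42.7% against 28.2%. Without replicate 1 or without replicate 2, the strongest entries of the other gave thresholded shares from 0.0% to 0.641%, pooled promoter shares from 6.41% to 8.97%, and a pooled body share of 16.7% each time. These repeat the cuts to list length given above and were counted again among the alternatives. The pooled list cut to the length of the thresholded list is likewise the thresholded list itself. The gene-body alternatives and the limit on unique sequence were chosen after seeing the data. No paired analysis was possible because the series has 1 group. Apart from the cases given as due to construction, the cause was not tested. Depth is unknown, so an absent entry is not an absence of binding.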
